A study of Mus musculus with 12 samples.

Results

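Spry2, Spry1, Spry4, Spred1, Dusp6 and Nf1 encode brakes on the Ras to MAPK signalling pathway, and the methylation of their 6 loci was measured here in mouse blood stem and progenitor cells that carry lesions of Tet2, of Nras or of both. The members are the CpGs with at least 10 reads in at least 2 libraries of each group, both strands summed, inside a window around each gene on mm9: chr14:106270000-106320000 for Spry2, chr3:37525000-37560000 for Spry1, chr18:38730000-38775000 for Spry4, chr2:116935000-117010000 for Spred1, chr10:98715000-98740000 for Dusp6 and chr11:79140000-79400000 for Nf1. They number 733 of the 1157487 autosomal CpGs that met this coverage rule, with 139 at Spry2, 176 at Spry1, 115 at Spry4, 122 at Spred1, 108 at Dusp6 and 73 at Nf1. The rule used coverage and position only, and no methylation value.

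LSK cells, the bone marrow fraction without lineage markers and with Sca1 and cKit, were sorted from C57BL/6 mice at 6 months of age, and each group had 3 libraries. The groups were leukemic Tet2(-/-) Nras(G12D) mice, nonleukemic Tet2(-/-) Nras(G12D) mice, Tet2(-/-) mice and Nras(G12D) mice. Reduced representation bisulfite sequencing reads CpGs near MspI cut sites and gives the percent of reads that kept a cytosine, that is, were methylated. The mutations were conditional and confined to blood-forming tissue, per the series' design text, the driver of recombination is not named in the labels, and every group carried at least 1 of the lesions; wild-type libraries were not analysed here. The leukemic group was taken from a leading L in the sample titles and from the design text. The description of these 3 libraries starts with TN-BMT, which the labels do not spell out and which was not interpreted here. The labels do not say that the replicates were separate animals, so a p-value measures the spread between these libraries, and in sorted bulk cells a changed share of cells cannot be told apart from changed methylation within cells. The sort and the genotypes could not be checked from methylation tables.

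Receptor tyrosine kinases switch Ras to its GTP-bound form, and Raf, Mek and Erk follow. The pathway has its own brakes, several of them induced by Erk. The Sprouty proteins, encoded by Spry1, Spry2 and Spry4, act between the receptor and Raf, Spred1 brings the GTPase-activating protein neurofibromin, the product of Nf1, to Ras at the membrane, and Dusp6 is a phosphatase that removes the activating phosphates from Erk in the cytoplasm. The G12D change leaves Nras poorly able to hydrolyse GTP. Tet2 oxidises methylcytosine and so takes part in its removal, and islands of unmethylated CpGs mark the promoters of most widely expressed genes.

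The libraries differed in read depth and in how often a CpG was read as exactly 0% or 100%. Libraries held 96300485 to 199736369 reads over listed cytosines, and the median coverage of a member CpG was 51 to 157 reads. Among CpGs of 20 to 80% mean methylation across the genome, the share read as exactly 0% or 100% was 23.9% in leukemic replicate 3, 14.9% in leukemic replicate 1, 20.3% in Tet2(-/-) replicate 2 and 13.6% in Nras(G12D) replicate 3, against 1.98% to 6.13% in the other libraries. Leukemic replicate 3, Tet2(-/-) replicate 2 and Nras(G12D) replicate 3 had the highest such share of their groups and are called below the 3 libraries that stood apart. Values without these 3 are given beside the tile and region differences they touch most. Leukemic replicate 1 was kept, although its share exceeded that of Nras(G12D) replicate 3. It had 10 island CpGs of the members above 10%, as did leukemic replicate 2, against 5 in leukemic replicate 3. The libraries of the other groups had 3 to 14. The part of such 0% and 100% values in a result was not tested. Copies made by PCR count as reads here, since the labels name no molecular identifier, and the 95% exact binomial (Clopper-Pearson) intervals given here cover counting error only.

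Transcription starts were found on the mm9 positions by matching the spacing of CpGs in the RefSeq promoter sequences (build GRCm38.p6) to the listed cytosines. At Spry2, 33 of 33 listed cytosines of the span fell on a CpG of the sequence, which put the start at position 106296036 of chromosome 14, on the minus strand. Spry1, Spred1, Dusp6 and Nf1 were placed in the same way, and Spry4 was not, so that its distances run from its island tile. The 250 bases before the start are shown for Spry2 (chr14:106296037-106296286, minus strand), which the study's question about lost brakes on Ras concerns, for Spry1 (chr3:37538619-37538868, plus strand), whose stretch held a CpG read at 100% in a library, and for Dusp6 (chr10:98725615-98725864, plus strand), the gene with a called region. They are written 5′ to 3′ along the gene, with the member CpGs, 10 for Spry2, 13 for Spry1 and 9 for Dusp6, in capitals.
Spry2: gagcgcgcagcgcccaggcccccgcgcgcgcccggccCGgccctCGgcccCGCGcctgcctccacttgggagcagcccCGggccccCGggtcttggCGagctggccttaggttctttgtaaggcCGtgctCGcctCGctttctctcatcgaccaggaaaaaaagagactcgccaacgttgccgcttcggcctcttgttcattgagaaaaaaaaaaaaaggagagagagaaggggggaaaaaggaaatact
Spry1: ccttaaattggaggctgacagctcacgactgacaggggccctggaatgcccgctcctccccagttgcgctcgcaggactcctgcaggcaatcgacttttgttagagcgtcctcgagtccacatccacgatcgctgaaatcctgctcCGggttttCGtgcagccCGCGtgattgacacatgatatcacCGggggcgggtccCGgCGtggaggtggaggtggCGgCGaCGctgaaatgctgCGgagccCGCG
Dusp6: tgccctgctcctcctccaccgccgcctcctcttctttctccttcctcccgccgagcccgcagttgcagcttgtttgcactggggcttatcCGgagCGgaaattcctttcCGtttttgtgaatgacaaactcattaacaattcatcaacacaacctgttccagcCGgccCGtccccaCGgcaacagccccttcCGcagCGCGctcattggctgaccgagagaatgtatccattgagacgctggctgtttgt
The letters CCGG, where MspI cuts on both strands, occur 4 times in the Spry2 stretch, 3 times in that of Spry1 and 2 times in that of Dusp6. Of the 32851 RefSeq promoter stretches of this length, 47.1% held the letters at least once. In the Spry2 stretch, 114 of the 118 values, each of 1 CpG in 1 library, were 0%, and the highest was 11.1%.

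The Spry2 promoter was unmethylated in every group. Over the 15 member CpGs of the 300 bases around its start, leukemic replicate 2 had 17 methylated reads of 896, or 1.90% (interval 1.11 to 3.02%), and leukemic replicates 1 and 3 had none. Nonleukemic replicate 2 stood at 0.584% and Tet2(-/-) replicate 1 at 0.594%, and the other libraries of these groups had no methylated read. None was found in the 490, 556 and 574 reads of the Nras(G12D) libraries either, which allows levels of up to 0.75%, 0.661% and 0.641%.

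The unmethylated stretch of Spry2 is long. Of the CpGs of the locus, 128 lie in 4 island tiles, a tile being a window of 1000 bp that starts at a multiple of 1000, and an island tile one with at least 10 member CpGs and a mean under 20%. They reach from 2036 bp downstream of the start, inside the gene, to 2676 bp upstream of it. Over the 114 island CpGs listed in all 12 libraries, mean methylation was 1.83%, 1.63% and 0.178% in leukemic, 1.16%, 1.14% and 1.20% in nonleukemic double mutant, 1.13%, 1.37% and 1.33% in Tet2(-/-), and 1.16%, 0.961% and 0.971% in Nras(G12D) replicates 1 to 3. The highest and the lowest of these values were both leukemic, and in each of the 6 pairs of groups the libraries overlapped. The largest difference between group means, Tet2(-/-) minus Nras(G12D), was 0.247 percentage points (two-sided exact permutation test, p = 0.2; 3 libraries against 3 cannot give less than 0.1). Over all 102 comparisons of island, shore and flank means of the 6 genes, each exact p of 0.1 had a Benjamini-Hochberg adjusted value of 0.537 and each of 0.2 one of 0.729, so that none passed 0.05.

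What methylation the Spry2 island had lay at its upstream edge. Of the 23 CpGs in its last tile, 19, between 2021 and 2560 bp from the start, averaged 0.521% ± 0.809 in leukemic, 0.535% ± 0.0752 in nonleukemic double mutant, 0.164% ± 0.257 in Tet2(-/-) and 0.132% ± 0.179 in Nras(G12D) libraries (SD, n = 3 each). The 4 CpGs that follow, 2567 to 2676 bp upstream, averaged 25% ± 19.3, 27.0% ± 3.46, 28.2% ± 4.90 and 27.9% ± 3.22 in the same groups. The CpGs were divided at the same place for all groups. These means thus cannot show whether the step to partly methylated DNA lay at the same CpGs in each group. On the low side of the division, leukemic replicate 2 read 27.6% on 29 reads at the CpG 2560 bp upstream. Over the 4 CpGs, the spread was widest among leukemic libraries, which stood at 43.3%, 26.9% and 4.80%.

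**Figure D1:**
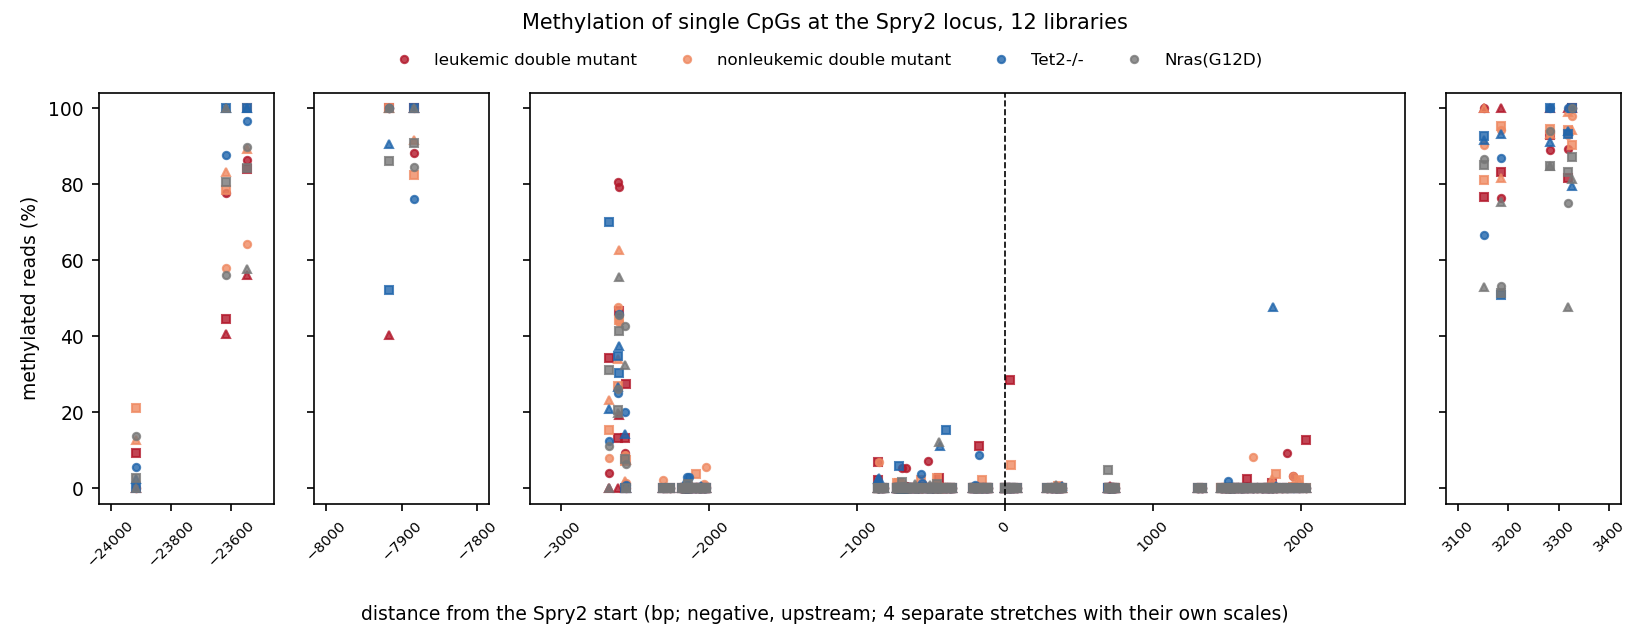
Percent of methylated reads (y axis) at each member CpG of Spry2 against its distance from the start in bp (x axis, 4 stretches with their own scales); colours are the 4 groups, circles, squares and triangles replicates 1, 2 and 3, and the dashed line is the start. CpGs between 2036 bp downstream and 2560 bp upstream lie near 0% in nearly all libraries, those from 2567 bp upstream are partly methylated in many libraries, and the CpGs 3152 to 3326 bp downstream are mostly methylated.

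Away from that edge, single island CpGs stood above 10% in single libraries. At Spry2 this held for 7 CpGs, among them 47.6% on 42 reads in Tet2(-/-) replicate 3, at 1815 bp downstream of the start, and 28.6% on 42 reads in leukemic replicate 2, at 35 bp downstream. These CpGs were picked for exceeding 10% in 1 library only, so they cannot show whether a whole group was high. Over all 6 genes, 549 of the 589 island CpGs were at or below 10% in every library, 28 exceeded it in 1 library and 12 in 2 or more, 4 of them at the Spry2 edge.

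Inside the gene, downstream of the island, Spry2 was less methylated in Nras(G12D) cells than in the groups without Tet2. The shore tile there (a shore tile lies within 2 kb of an island tile), chr14:106292000-106292999, runs from 3037 to 4036 bp downstream of the start, within the 4873 bp that RefSeq gives the gene, and holds 5 CpGs read 196 to 505 times per library. Methylation was 90.4%, 86.6% and 100% in leukemic, 94.1%, 91.9% and 93.9% in nonleukemic double mutant, 90.2%, 89.0% and 89.4% in Tet2(-/-), and 80.6%, 80.8% and 68.8% in Nras(G12D) replicates 1 to 3. All 9 libraries without Tet2 stood above all 3 with it. The exact interval of the highest Nras(G12D) library, 75.9 to 85.0%, overlapped with that of the lowest other library, leukemic replicate 2, at 82.7 to 89.9%.

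Of all 105607 tiles, 2.86% in leukemic, 8.22% in nonleukemic double mutant and 9.03% in Tet2(-/-) cells were likewise higher than Nras(G12D) without overlap. The differences from Nras(G12D) at the Spry2 shore tile were 15.6 points in leukemic, 16.6 points in nonleukemic double mutant and 12.8 points in Tet2(-/-) cells, and the 3 comparisons share the Nras(G12D) libraries. None was called at an adjusted p under 0.05 (quasi-binomial model with moderated dispersion, Benjamini-Hochberg over 105607 tiles): the adjusted p was 0.0731, 1.0 and 0.851, with unadjusted p of 0.00277, 0.0017 and 0.0159. Across the genome, 0.594%, 0.78% and 2.89% of all tiles differed as far or farther in the same direction, and 0.118%, 0.129% and 0.876% of the 62553 tiles over 80% methylated. Without the 3 libraries that stood apart the differences were 7.82, 12.6 and 9.13 points. Among the 5 CpGs, the one 3318 bp downstream stood at 89.2%, 81.7% and 100% in leukemic, 92.9%, 94.2% and 99.1% in nonleukemic double mutant, 100%, 93.1% and 93.9% in Tet2(-/-), and 75%, 83.1% and 47.8% in Nras(G12D) cells, and the leukemic and Nras(G12D) libraries overlap there.

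Far upstream, a partly methylated Spry2 flank tile varied most. It lies 22964 to 23963 bp from the start (chr14:106319000-106319999, 3 CpGs, 133 to 382 reads per library). Its levels were 38.3%, 34.1% and 9.95% in leukemic, 27.1%, 47.1% and 40.2% in nonleukemic double mutant, 52.1%, 64.0% and 54.4% in Tet2(-/-), and 41.4%, 42.8% and 22.8% in Nras(G12D) replicates 1 to 3. The Tet2(-/-) libraries were above all others, and the other 3 groups overlapped. Of all tiles, 9.03% were likewise higher without overlap in Tet2(-/-) than in Nras(G12D) libraries. Lower without overlap than Tet2(-/-) were 7.41% in nonleukemic double mutant and 19.4% in leukemic libraries. Leukemic minus Tet2(-/-) was -29.4 points and just missed the threshold (adjusted p = 0.0515). It was -17.0 points (adjusted p = 0.119) without the 3 libraries that stood apart, and it passed in 5 of 21 alternatives, adjusted p ranging from 0.0244 to 0.207. Tet2(-/-) minus Nras(G12D) was 21.2 points (adjusted p = 0.851). The 3 CpGs of the tile differ in level, the farthest standing at 0% to 21.2% and the other 2 at 40.7% to 100%, so that the pooled value of a library also moves with their shares of its reads. With equal weights over the 5 Spry2 flank CpGs, leukemic minus Tet2(-/-) was -12.3 points (exact permutation p = 0.2) and Tet2(-/-) minus Nras(G12D) 4.34 points (p = 0.2). Of the other Spry2 flank CpGs, 7884 and 7917 bp upstream, the lowest values were 40.3% in leukemic replicate 3 and 52.2% in Tet2(-/-) replicate 2, and most were above 80%.

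**Figure D2:**
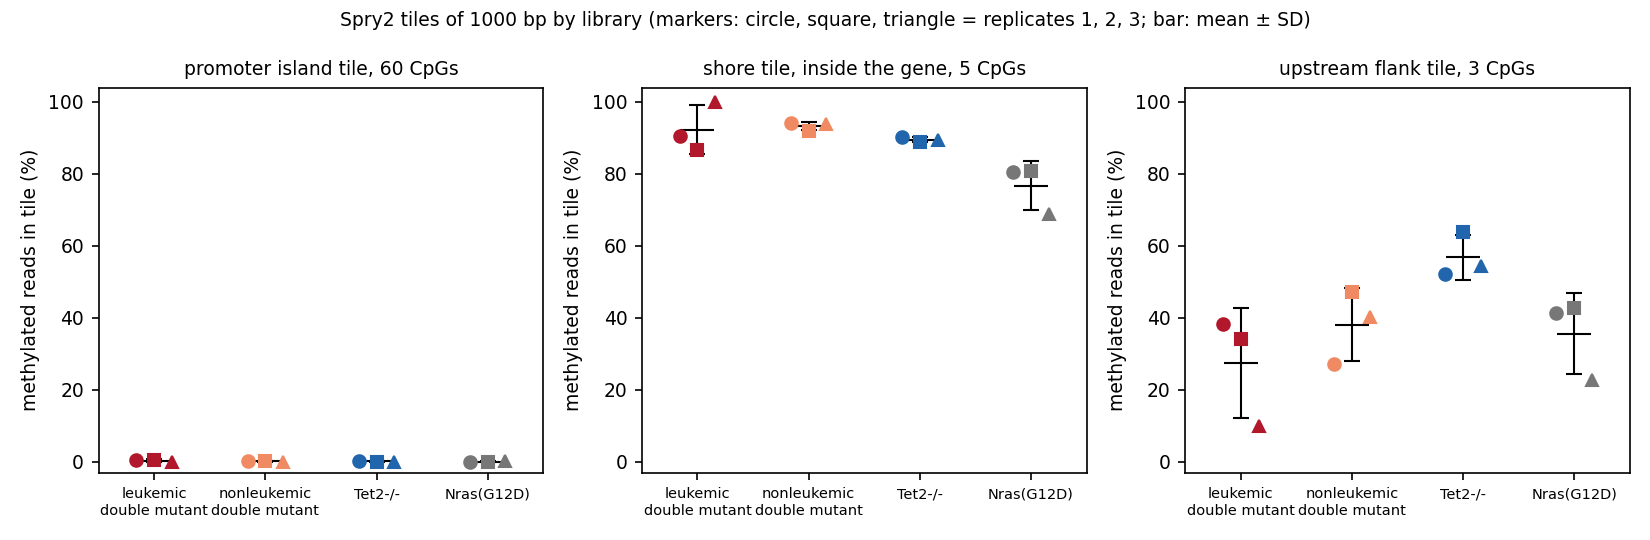
Percent of methylated reads (y axis) in the Spry2 promoter, shore and upstream flank tiles by library, groups along the x axis; markers are replicates, and bars the mean ± SD of 3 libraries. The promoter tile is near 0% in all groups, the Nras(G12D) libraries (68.8% to 80.8%) are below the other groups in the shore tile, and the Tet2(-/-) libraries (52.1% to 64.0%) are highest in the flank tile.

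The other Sprouty genes also had island tiles, which are low in methylation by definition. Tiles with as many CpGs and a high mean count as shore or flank. Examples are chr3:37541000-37541999 at Spry1 (13 CpGs, mean 94.8%) and chr18:38749000-38749999 at Spry4 (15 CpGs, mean 94.7%). At Spry1 the island CpGs averaged 1.15%, 0.489% and 0.137% in leukemic replicates 1 to 3, and 0.183% ± 0.109 in nonleukemic double mutant, 0.116% ± 0.119 in Tet2(-/-) and 0.160% ± 0.107 in Nras(G12D) libraries (SD, n = 3 each; 107 CpGs). The values of leukemic replicates 1 and 2 included the CpG 63 bp before the start, in capitals within the Spry1 stretch above, where they read 100% on 52 reads and 25% on 16 reads, while leukemic replicate 3 and all Tet2(-/-) and Nras(G12D) libraries read 0% and nonleukemic replicate 2 7.32%. The leukemic libraries thus did not share that value, and leukemic minus nonleukemic had an adjusted p of 0.332. At Spry4 the island, 47 CpGs on chromosome 18, averaged 0.257% ± 0.296 in leukemic, 0.359% ± 0.185 in nonleukemic double mutant, 0.270% ± 0.156 in Tet2(-/-) and 0.385% ± 0.255 in Nras(G12D) libraries (SD, n = 3 each).

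Beside its island, Spry1 had a shore in 2 steps. The tile chr3:37540000-37540999, 1131 to 2130 bp downstream of the start, held 4 CpGs near 0% and 5 with more methylation, and stood at 20.3%, 5.91% and 4.40% in leukemic, 11.8%, 5.28% and 8.85% in nonleukemic double mutant, 11.4%, 20.4% and 11.1% in Tet2(-/-), and 7.21%, 14.8% and 7.36% in Nras(G12D) replicates 1 to 3. All groups overlapped. The 2 tiles that follow, up to 4130 bp downstream, were 86.5% to 100% methylated in every library. Within the first of them, the CpG 2732 bp downstream read 100% in all 3 leukemic libraries, 71.1%, 76.3% and 72.7% in nonleukemic double mutants, 38.2% and 46.2% in Tet2(-/-) replicates 1 and 3, and 84.6%, 100% and 100% in Nras(G12D) libraries. It was not listed in Tet2(-/-) replicate 2, and among single CpGs of the members it came nearest to a call, leukemic minus Tet2(-/-) being 57.8 points (adjusted p = 0.0562 over 1157487 CpGs, where a call needed less than 0.05 and a difference of 25 points).

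At Spry4, which had the most flank tiles, the mean over the flank was lowest in leukemic libraries, while its tiles differed in direction. Over 40 flank CpGs listed in all libraries, the means were 58.5%, 58.1% and 59.8% in leukemic, 68.0%, 66.4% and 64.5% in nonleukemic double mutant, 66.5%, 75.2% and 63.7% in Tet2(-/-), and 63.4%, 61.0% and 61.9% in Nras(G12D) replicates 1 to 3. These leukemic means lay below all others, and leukemic minus nonleukemic double mutant was -7.46 points, leukemic minus Tet2(-/-) -9.67 points and leukemic minus Nras(G12D) -3.28 points, each with p = 0.1, the smallest that the exact permutation test can give (adjusted 0.537). Without the 3 libraries that stood apart they were -8.0, -6.8 and -3.9 points. Tiles over the genome were lower in leukemic cells as well: among those of 20 to 80% methylation the median difference from nonleukemic double mutants was -8.10 points. Of all tiles, 19.9%, 19.4% and 14.9% were lower without overlap in leukemic than in nonleukemic double mutant, Tet2(-/-) and Nras(G12D) libraries. Such shares were not computed for region means.

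No single Spry4 tile passed the threshold over all 12 libraries. Of the 7 flank tiles tested, 4 had a lower and 3 a higher mean in leukemic than in nonleukemic double mutant cells. The tile chr18:38730000-38730999 (3 CpGs, 35 to 143 reads) stood at 60.4%, 36.3% and 77.1% in leukemic, 93.9%, 84.6% and 75.3% in nonleukemic double mutant, 64.7%, 88.9% and 80.6% in Tet2(-/-), and 76.7%, 69.6% and 73.5% in Nras(G12D) libraries. Leukemic minus nonleukemic was -26.7 points there, with overlap between the groups (adjusted p = 0.0764, and 0.0469 to 0.325 over 19 alternatives, of which 1 passed). At chr18:38743000-38743999 (6 CpGs) the values were 73.8%, 59.2% and 64.2% in leukemic, 81.2%, 82.0% and 85.3% in nonleukemic double mutant, 90.0%, 98.0% and 73.2% in Tet2(-/-), and 72.2%, 73.9% and 68.3% in Nras(G12D) libraries. Leukemic minus Tet2(-/-) was -21.3 points (adjusted p = 0.0527), and the lowest Tet2(-/-) library was below the highest leukemic one. Without the 3 libraries that stood apart it was -15.1 points (adjusted p = 0.145), and 3 of 21 alternatives passed.

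The opposite direction was seen at chr18:38750000-38750999, with 29.4%, 48.5% and 52.7% in leukemic, 27.3%, 28.8% and 31.1% in nonleukemic double mutant, 39.4%, 51.1% and 38.7% in Tet2(-/-), and 32.8%, 33.0% and 53.5% in Nras(G12D) libraries. Leukemic minus nonleukemic double mutant was 14.4 points there, with overlap (adjusted p = 0.236), and without leukemic replicate 1 it was 21.5 points and was called as higher (adjusted p = 0.033). The other 2 such tiles were 4.12 points (adjusted p = 0.257) and 1.12 points (adjusted p = 0.809) higher in leukemic cells.

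Spred1, the adaptor that recruits neurofibromin, had an island of 114 member CpGs that averaged 0.549% ± 0.834 in leukemic, 0.125% ± 0.0725 in nonleukemic double mutant, 0.361% ± 0.170 in Tet2(-/-) and 0.322% ± 0.257 in Nras(G12D) libraries (SD, n = 3 each; 79 CpGs listed in all). The high leukemic value came from replicate 3, at 1.51%, which read 94.3% on 35 reads at the CpG 952 bp downstream of the start, where the other 11 libraries read 0%. Its shore CpGs averaged 16.4%, 12.9% and 20.5% in leukemic, 23.3%, 21.2% and 26.0% in nonleukemic double mutant, 25.4%, 23.8% and 20.7% in Tet2(-/-), and 21.7%, 24.9% and 21.7% in Nras(G12D) replicates 1 to 3 (5 CpGs, equal weights). The leukemic libraries were below the others, and leukemic minus nonleukemic double mutant was -6.86 points (exact permutation p = 0.1, adjusted 0.537), and -8.85 points without the 3 libraries that stood apart. Of all tiles, 19.9%, 19.4% and 14.9% were lower without overlap in leukemic than in nonleukemic double mutant, Tet2(-/-) and Nras(G12D) libraries. Of the 5 Spred1 shore CpGs averaged, 1 lies in the tile chr2:116944000-116944999, with 17 to 75 reads per library. It stood at 72.0%, 64.5% and 100% in leukemic and at 100% in all nonleukemic double mutant libraries. In Tet2(-/-) it was 100%, 100% and 85.7%, and in Nras(G12D) libraries 100%. Its part in the shore difference was not computed. The tile chr2:116945000-116945999 leaves this CpG out. With the reads of that tile pooled, the groups overlapped: 14.6%, 11.9% and 1.46% in leukemic and 12.9%, 15.1% and 16.5% in nonleukemic double mutant libraries, with an adjusted p of 0.51.

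**Figure D3:**
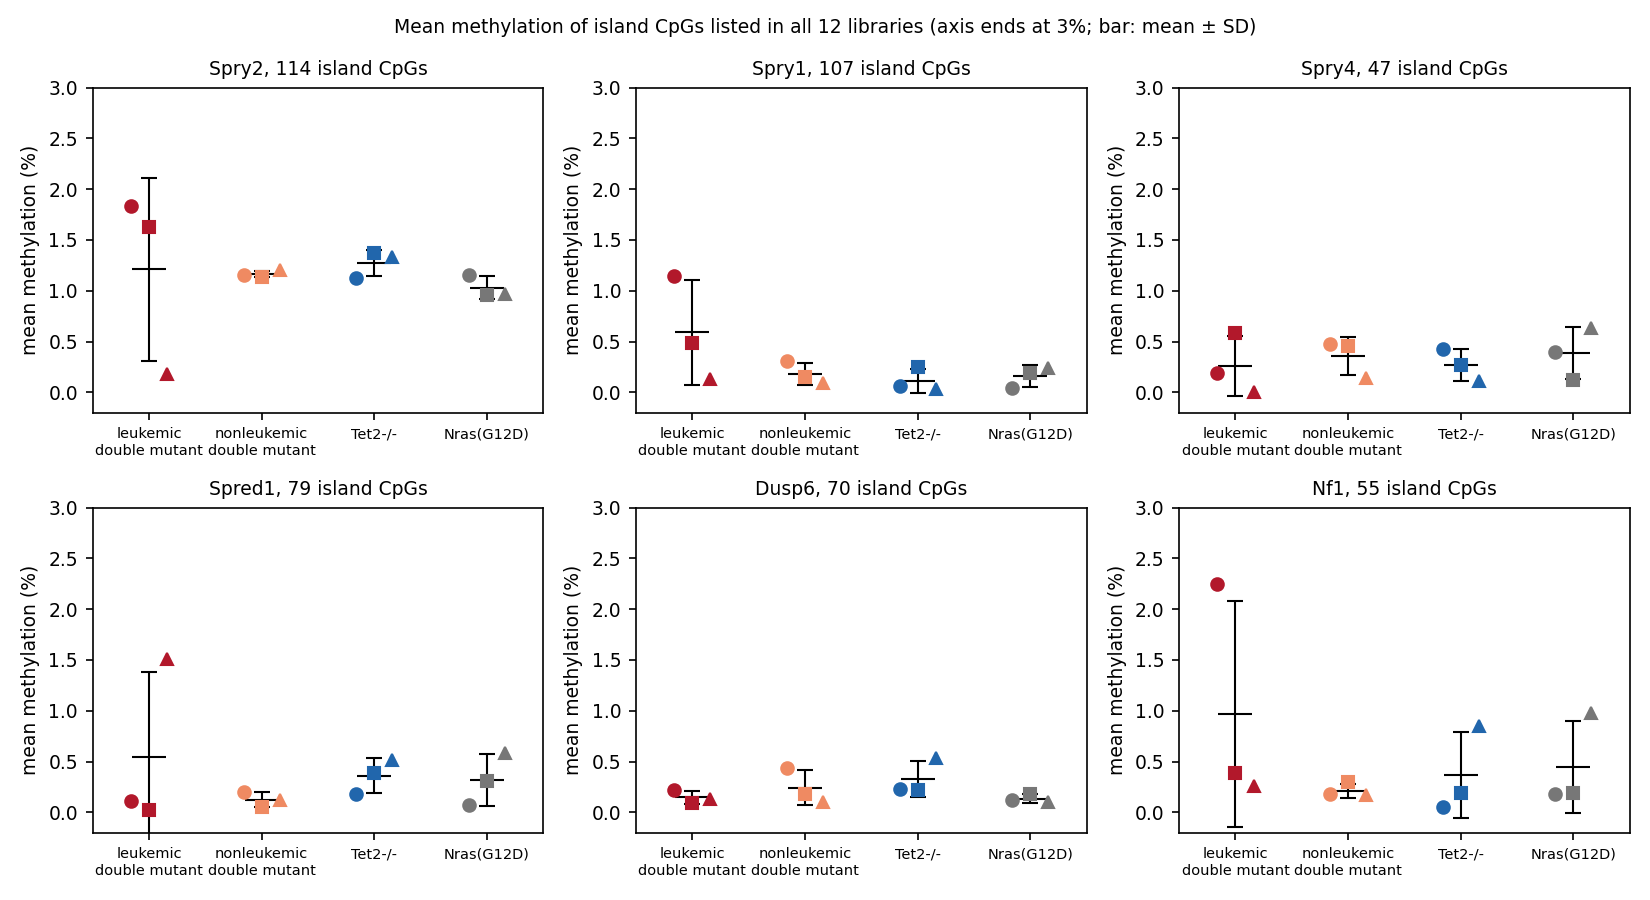
Mean methylation in percent (y axis, ending at 3%) of the island CpGs listed in all 12 libraries, by group (x axis), for the 6 genes; markers are replicates 1, 2 and 3 (circle, square, triangle) and bars the mean ± SD of 3 libraries. No library exceeds 2.25%, and the widest spreads are among leukemic libraries at Spry2, Spry1, Spred1 and Nf1.

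Dusp6, the Erk phosphatase, was the member with a called region. Of its 108 CpGs, 89 lie in islands, which averaged 0.149% ± 0.0659 in leukemic, 0.242% ± 0.172 in nonleukemic double mutant, 0.329% ± 0.175 in Tet2(-/-) and 0.137% ± 0.0433 in Nras(G12D) libraries (SD, n = 3 each; 70 CpGs listed in all). The promoter stretch shown above held 99 values of 0% among 105. The called tile, chr10:98733000-98733999, is a flank tile of 5 CpGs and 112 to 800 reads, 7135 to 8134 bp downstream of the start and so beyond the 4259 bp that RefSeq gives the gene. It stood at 4.88%, 4.44% and 25.6% in leukemic, 35.5%, 43.3% and 40.7% in nonleukemic double mutant, 27.4%, 74.1% and 30.8% in Tet2(-/-), and 23.1%, 12.8% and 13.8% in Nras(G12D) replicates 1 to 3.

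Leukemic libraries were below all nonleukemic double mutant and Tet2(-/-) libraries at this Dusp6 tile, and overlapped with Nras(G12D). Of all tiles, 19.9% were likewise lower without overlap than in the nonleukemic double mutant and 19.4% than in Tet2(-/-). The tile fell by 28.2 points against the nonleukemic double mutant (adjusted p = 0.0463) and by 32.5 points against Tet2(-/-) (adjusted p = 0.0435), and leukemic minus Nras(G12D) was -4.94 points (adjusted p = 0.463). The comparisons share the leukemic libraries. Both calls were near the threshold, and 13 and 14 of 20 alternatives ended them, limma on log2 ratios among these, with adjusted p of 0.26 and 0.113. Leaving out any 1 library ended the call against the nonleukemic double mutant (adjusted p of up to 0.167) except Tet2(-/-) replicate 2 (0.0266) and leukemic replicate 3 (0.0108). It ended the call against Tet2(-/-) (adjusted p of up to 0.123) except for leukemic replicate 3 (0.00909), and without Tet2(-/-) replicate 2 that difference was -17.5 points. Without the 3 libraries that stood apart the differences were -35.2 and -24.4 points, with adjusted p of 0.00332 and 0.00919, and leukemic minus Nras(G12D) was -13.3 points (adjusted p = 0.0731). The nonleukemic double mutant and Tet2(-/-) libraries were all above those of Nras(G12D), by 23.3 points (adjusted p = 1.0) and 27.5 points (adjusted p = 0.851). Of all tiles, 8.22% and 9.03% were likewise higher without overlap.

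The CpGs of that tile did not move alike. The one 7373 bp downstream read 4.02%, 0% and 0% in leukemic, 38.7%, 52.9% and 32.3% in nonleukemic double mutant, 40.5%, 92.9% and 35.7% in Tet2(-/-), and 18.3%, 26.1% and 26.9% in Nras(G12D) replicates 1 to 3, and the leukemic libraries were below all 9 others. At 7587 bp, leukemic replicates 1 and 2 read 21.6% and 7.06% while replicate 3 read 100%, and the Nras(G12D) libraries spread over 73.2%, 32.1% and 100%. Each of the other 3 CpGs was not listed in at least 1 library, so that the pooled value of the tile rests on different CpGs in different libraries, and the 2 listed in all 12 are too few for a tile test. With equal weights over the 4 Dusp6 flank CpGs listed in all libraries, the means were 31.5%, 26.8% and 50.4% in leukemic, 71.9%, 73.6% and 69.5% in nonleukemic double mutant, 67.1%, 94.5% and 69.0% in Tet2(-/-), and 57.9%, 54.9% and 81.7% in Nras(G12D) replicates 1 to 3. Of these 4 CpGs, the 2 at 7373 and 7587 bp lie in the called tile, and the others lie 5866 to 10865 bp upstream of the start. The upstream flank tiles, with 2 CpGs each, averaged 51.6% and 51.6% in leukemic and 66.1% and 95.8% in nonleukemic double mutant libraries. They averaged 77.7% and 97.2% in Tet2(-/-) and 75.2% and 97.0% in Nras(G12D) libraries. Over the 4 CpGs, the leukemic libraries were below all 9 others, Nras(G12D) included. The part of the upstream CpGs in this was not computed. Of all tiles, 19.9%, 19.4% and 14.9% were lower without overlap in leukemic than in nonleukemic double mutant, Tet2(-/-) and Nras(G12D) libraries. Such shares were not computed for region means or single CpGs. The differences were -35.4 points from the nonleukemic double mutant, -40.6 points from Tet2(-/-) and -28.6 points from Nras(G12D) (exact permutation p = 0.1 each, adjusted 0.537). Without the 3 libraries that stood apart these were -42.5, -38.9 and -27.2 points. A CpG 6299 bp upstream of Dusp6 read 66.0%, 57.1% and 100% in leukemic libraries, against 98.3% to 100% in all others, and leukemic minus nonleukemic was -25.1 points (adjusted p = 0.0891).

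The shore tile of Dusp6, 1135 to 2134 bp downstream, was at 0% in the 3 leukemic libraries, at 2.04%, 0% and 0% in nonleukemic double mutants, at 3.48%, 18.7% and 0% in Tet2(-/-), and at 0%, 0.243% and 0% in Nras(G12D) replicates 1 to 3. Leukemic minus Tet2(-/-) had an adjusted p of 0.0368 at -7.39 points, under the 10 points that a call needs, and rests on Tet2(-/-) replicates 1 and 2. Without the 3 libraries that stood apart it was -1.74 points (adjusted p = 0.211). Farther out, at 3163 bp downstream, a shore CpG read 21.0%, 13.4% and 33.3% in leukemic, 16.4%, 3.42% and 0.935% in nonleukemic double mutant, 46.6%, 0% and 2.80% in Tet2(-/-), and 0%, 4.88% and 0% in Nras(G12D) replicates 1 to 3, with leukemic above Nras(G12D) libraries. With equal weights, the 4 Dusp6 shore CpGs listed in all libraries averaged 8.28% ± 2.90 in leukemic and 2.58% ± 2.21 in nonleukemic double mutant libraries. They averaged 10.6% ± 11.8 in Tet2(-/-) and 1.29% ± 1.17 in Nras(G12D) libraries (SD, n = 3 each). Leukemic minus nonleukemic double mutant was 5.70 points and leukemic minus Nras(G12D) 6.99 points, without overlap (exact permutation p = 0.1 each, adjusted 0.537). Without the 3 libraries that stood apart these were 4.21 and 6.0 points. Leukemic minus Tet2(-/-) was -2.37 points, with overlap. Of all tiles, 2.62% and 2.86% were higher without overlap in leukemic than in nonleukemic double mutant and Nras(G12D) libraries. The share was not computed for region means or single CpGs.

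Nf1, the GTPase-activating protein of Ras, had member CpGs almost only in its island. It averaged 2.25%, 0.392% and 0.258% in leukemic replicates 1 to 3, and 0.213% ± 0.0711 in nonleukemic double mutant, 0.366% ± 0.424 in Tet2(-/-) and 0.451% ± 0.452 in Nras(G12D) libraries (SD, n = 3 each; 55 CpGs listed in all). Leukemic replicate 1 was above 10% at 4 Nf1 CpGs, with 36.3%, 25%, 25.2% and 35.4% on 214 to 308 reads, between 631 bp upstream and 38 bp downstream of the start. Leukemic replicate 3 exceeded 10% at 1 of the 4, the CpG 38 bp downstream, with 11.7% on 256 reads. Nras(G12D) replicate 3 exceeded 10% at 3, with 12.1% to 20%, and Tet2(-/-) replicate 3 at 1, with 31.6%. The 2 flank CpGs of Nf1, 7292 and 7424 bp upstream, were 67.4% to 100% methylated in all libraries.

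**Figure D4:**
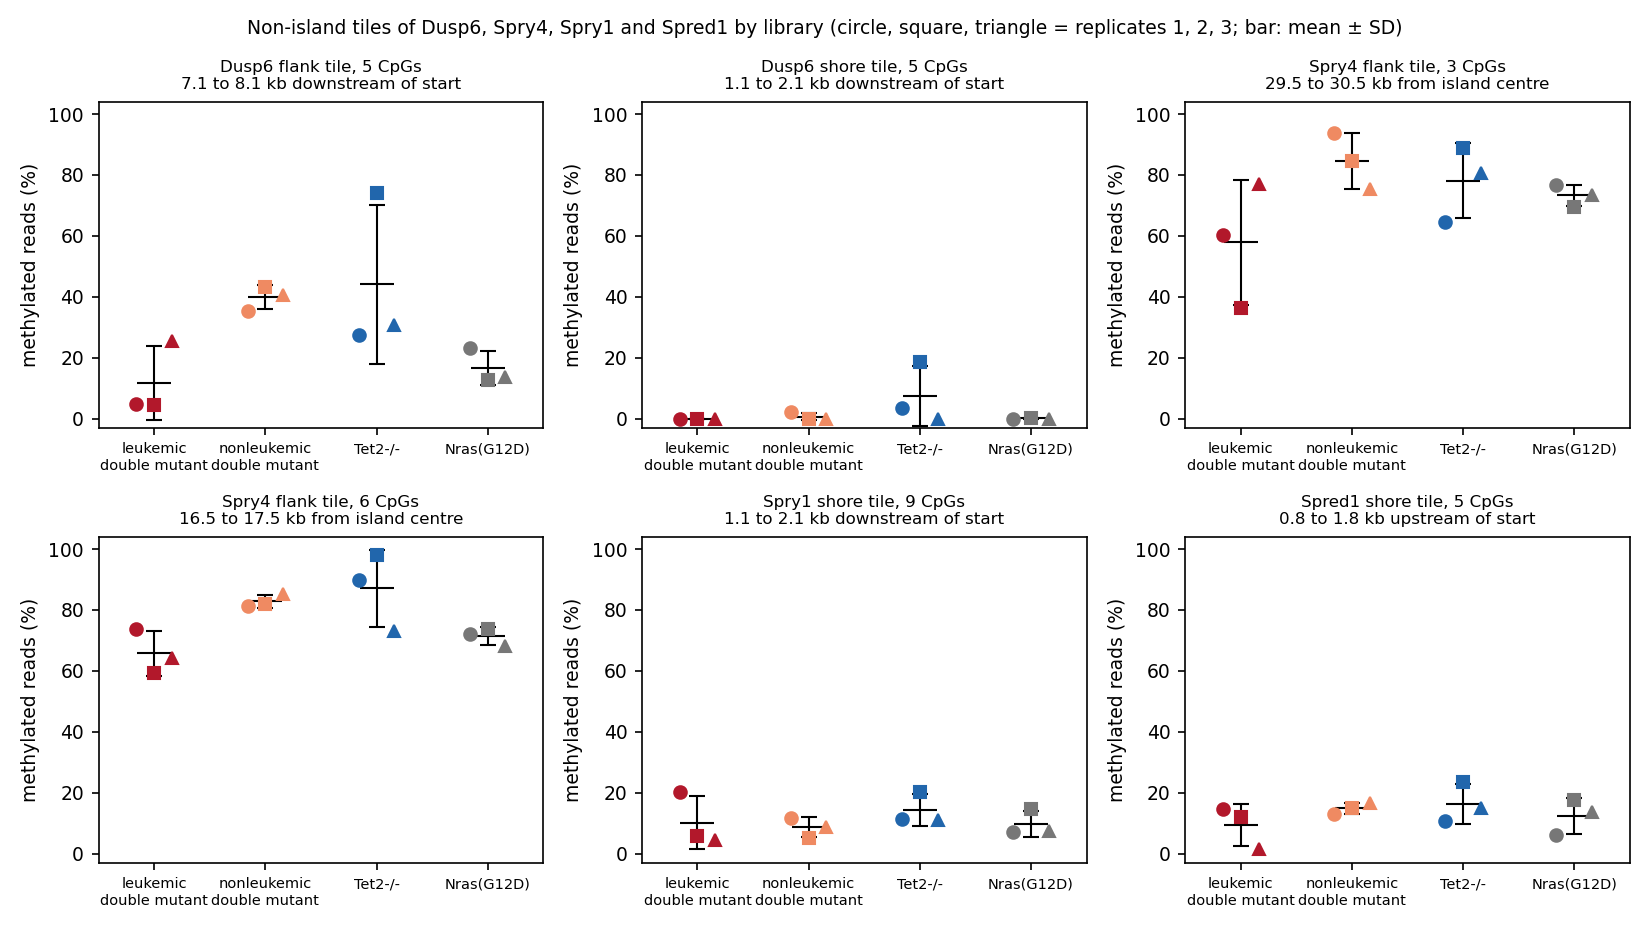
Percent of methylated reads (y axis) in non-island tiles of Dusp6, Spry4, Spry1 and Spred1 by library, groups along the x axis; markers are replicates and bars the mean ± SD of 3 libraries. The leukemic libraries (4.44% to 25.6%) are below the nonleukemic double mutant (35.5% to 43.3%) and Tet2(-/-) libraries in the Dusp6 flank tile, and Tet2(-/-) replicate 2 is the highest library in 5 of the 6 panels.

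Counted over all members, 33 of the 51 tiles with members (14 island, 10 shore and 9 flank, with 707 CpGs) held the 3 CpGs that a test needed, and 1 was called in each of 2 comparisons, the Dusp6 flank tile. In leukemic minus nonleukemic double mutant 0 tiles rose and 1 fell, where 0.0985% of all 105607 tiles rose and 3.74% fell (3.84% called in all). In leukemic minus Tet2(-/-) 0 rose and 1 fell, where 0.139% and 7.18% did (7.32% in all). Leukemic minus Nras(G12D) gave 0 member tiles, against 1.98% of all tiles (0.0786% higher, 1.9% lower), with 4 member tiles at an unadjusted p under 0.05 and 0 called by limma, which called 0.0% of all tiles there. At that unadjusted p, 9.09% of member tiles were higher and 3.03% lower, where 2.88% of all tiles were higher and 16.7% lower. Among the groups without leukemia 0 member tiles were called: percent called was 0.0% of all tiles for nonleukemic double mutant minus Tet2(-/-), 0.00189% for nonleukemic double mutant minus Nras(G12D) and 0.0% for Tet2(-/-) minus Nras(G12D). These 3 comparisons had 1, 3 and 4 member tiles at an unadjusted p under 0.05, and limma called 0, with 0.0% of all tiles called. In the same order, 0.0%, 9.09% and 12.1% of member tiles were higher at that unadjusted p and 3.03%, 0.0% and 0.0% lower. Of all tiles, 0.963%, 2.08% and 4.9% were higher and 2.29%, 0.775% and 0.942% lower. With 1 of 33 tiles at most, the members' share of calls was not above that of all tiles in either comparison with a call, levels of methylation not being matched. Of the 33, 21 were under 20% methylated, where 0.438% and 0.965% of all tiles were called in these 2 comparisons. Of the 7 member tiles of 20 to 80%, 14.3% were called in each, against 9.6% and 15.7% of all tiles of that level.

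No member CpG was called in any comparison by the quasi-binomial model, where 0.00898% of all CpGs were in leukemic minus nonleukemic double mutant (0.000778% higher, 0.00821% lower), 0.0342% in leukemic minus Tet2(-/-) (0.00095% higher, 0.0333% lower), 0.0% in leukemic minus Nras(G12D), 0.0% in nonleukemic double mutant minus Tet2(-/-), and 0.000346% in each of the other 2. At an unadjusted p under 0.05, 14 to 25 of the 733 CpGs were higher and 6 to 39 lower per comparison, with 25 higher and 33 lower for leukemic minus nonleukemic double mutant. For that comparison these were 3.41% and 4.5% of the member CpGs, where 3.23% of all CpGs were higher and 8.85% lower. For leukemic minus Tet2(-/-) they were 2.86% and 5.32% of the members, against 2.9% and 9.7% of all CpGs. Most members lie in islands, 589 of 733, and the shares of CpGs were not split by level. The limma fit called 3 member CpGs, all in leukemic minus Tet2(-/-): 2 of Spry1 and 1 of Dusp6, chosen for mention after their values were seen. They were 0.409% of the member CpGs, where limma called 0.121% of all CpGs in that comparison, 50 higher and 1351 lower.

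By level, the medians of the partly methylated member tiles lay on the same side of 0 as those of the genome in all 6 comparisons. The 7 member tiles of 20 to 80% methylation had a median difference of -10.6 points in leukemic minus nonleukemic double mutant, where all tiles of that level had -8.10, and of 4.80 points in Tet2(-/-) minus Nras(G12D), where all had 3.92. The 5 member tiles over 80% had -0.599 points in leukemic minus nonleukemic double mutant, where all 62553 tiles of that level had -4.19. In leukemic minus Tet2(-/-) and in leukemic minus Nras(G12D) these 5 had medians of 2.8 and 2.24 points, on the other side of 0 from the -4.78 and -3.75 points of all tiles of that level. The 21 member tiles under 20% had medians between -0.0752 and 0.0715 points in all 6 comparisons.

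**Figure D5:**
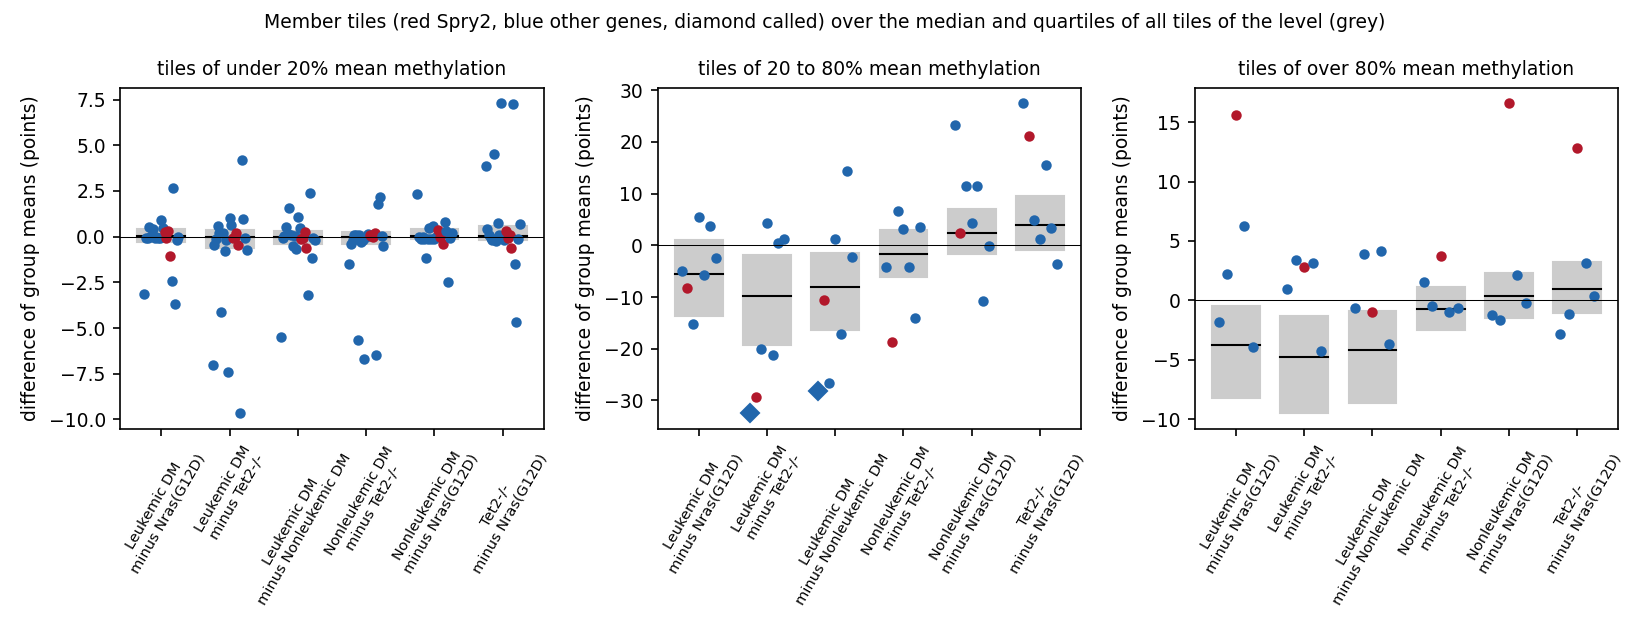
Difference of group means in percentage points (y axis) for the tested member tiles in 6 comparisons (x axis), split by the mean methylation of the tile; red points are Spry2, blue points the other 5 genes, diamonds called tiles, grey boxes the quartiles of all tiles of the level and black lines their median. The Spry2 shore tile stands at 12.8 to 16.6 points in the comparisons with Nras(G12D), and the diamonds at -28.2 and -32.5 points are the Dusp6 flank tile.

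Across the 12 libraries, the member tiles of other genes most like the Spry2 flank tile were those of Spry4 at chr18:38743000-38743999 (Pearson r = 0.682), of Spred1 at chr2:116945000-116945999 (r = 0.673) and of Spry4 at chr18:38733000-38733999 (r = 0.567). The 12 libraries share groups and overall methylation levels, and the values describe these libraries only.

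The promoters of other pathway genes that could be placed were unmethylated as well. Of 47 further genes, 22 could be placed: 13 of 21 other feedback genes, 8 of 17 core pathway genes and 1 of 9 Erk target genes. Their spans hold 7 to 49 CpGs. Of the promoter tiles tested, 14 of other feedback genes, 10 of core genes and 2 of target genes, 0 were called in any comparison, and the highest level of a span in any library was 5.06%, at Dab2ip, a Ras GTPase-activating protein. No span thus reached the 10 points by which groups must differ for a call. Of all tiles under 20% methylated, at most 0.965% were called in a comparison. The widest ranges of group means were at Dab2ip, with 1.04% ± 0.594 in leukemic, 0.407% ± 0.301 in nonleukemic double mutant, 1.98% ± 2.70 in Tet2(-/-) and 1.01% ± 0.540 in Nras(G12D) libraries, then at Erf, a transcriptional repressor that Erk inactivates, and at Hras (SD, n = 3 each). Erf stood at 1.56% ± 2.24, 0.265% ± 0.267, 0.127% ± 0.183 and 0.0364% ± 0.0323 in the same groups, and Hras at 0.488% ± 0.433, 0.0754% ± 0.0654, 1.12% ± 1.83 and 0.235% ± 0.221. All 5 placed member promoters were in the same range, the highest library being 2.32%, at Nf1.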

How the data were processed

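DNA methylation was measured by reduced representation bisulfite sequencing (MspI, fragments of 150 to 400 bp, reads of 50 bp, per the labels' protocols) in 12 libraries of 4 groups. The submitters' processing notes name Bismark and the build mm9 (NCBIM37). The deposited tables list, per CpG and strand, the coverage as a count of reads, at least 10, and the percent of reads with C and with T as the authors computed them. Read counts were rebuilt from these, and the 1.11% to 2.78% of positions of a library with reads of another base kept only C and T. Strands were summed, CpGs needed 10 reads in 2 libraries of each group, and tiles 3 CpGs.

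Tiles and CpGs were tested with a quasi-binomial model over all 12 libraries (dispersion moderated as by limma's squeezeVar, floored at 1, Benjamini-Hochberg over all autosomal tiles or CpGs) and called at an adjusted p under 0.05 and 10 or 25 points. The code was tested on simulated data. A library without reads in a tile was dropped there. Starts needed 10 matching cytosines, at most 1 not matching, and a runner-up under 70% of the matches; the minimum of 10 replaced 6 after the data were seen. Replicates differed by more than sampling noise, with mean chi-square values per partly methylated CpG of 5.09 to 30.1. Same-numbered libraries of 2 groups did not deviate together (r of -0.0173 to 0.0358). Per gene, the text names the promoter tile, the non-island tile with the widest range of group means, and called tiles, and beyond this rule some tiles and CpGs chosen after their values were seen. The members, windows and gene lists were chosen with earlier results of these data known. Alternatives were other coverage, tile and difference settings, limma on log2((methylated + 1)/(unmethylated + 1)), other sets of libraries and a replicate block; a fit without features that lack a kind of read and a fit without 3 libraries were added after seeing the data. The tools were R 4.3.3 with limma 3.58.1, and Python 3.11.15 with SciPy 1.17.1, NumPy 2.4.6, matplotlib 3.10.9 and pandas 2.3.3.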

Additional observations from a re-analysis of the deposited data

How the results depend on the processing

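Member tiles called in leukemic minus nonleukemic double mutant were 1 in the reported fit and 0 in the fit on 6 libraries, with the replicate block, with limma, over CpGs listed in all 12 libraries and with tiles of 500 bp, and 0 to 2 when a replicate was left out. Without leukemic replicate 3 both were lower (the Dusp6 tile and the Spry4 tile at 38730000), and without leukemic replicate 1 the only 1 was the Spry4 tile at 38750000, higher. In leukemic minus Tet2(-/-) they were 1, and 0 on 6 libraries, with limma and with tiles of 500 bp, 2 with a minimum of 5 points and with a coverage minimum of 20, 3 with tiles shifted by 500 bp and without features that lack a kind of read, and 0 to 2 without a replicate. Leukemic minus Nras(G12D) gave 0, and 0 to 1 without a replicate, the 1 being the Spry2 shore tile without leukemic replicate 2 (18.5 points, adjusted p = 0.0496). Member CpGs called in leukemic minus Tet2(-/-) were 0, and 3 with limma, 3 with the replicate block and 4 without features that lack a kind of read, a setting that gave 2 in leukemic minus nonleukemic double mutant. The replicate numbers pair no libraries by the labels or the data; with the block, the Dusp6 flank tile had adjusted p of 0.0917 and 0.0826 and the Spry2 flank tile 0.0493. The Spred1 shore tile, leukemic minus Tet2(-/-), turned to 0.434 points without the 3 libraries that stood apart.

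Of the Spry2 region means, with reads pooled over CpGs the island differences were -0.112 (Tet2(-/-) minus Nras(G12D)), -0.0869 (nonleukemic double mutant minus Nras(G12D)) and 0.0248 points (nonleukemic double mutant minus Tet2(-/-)), and the flank differences 16.3 and 9.53 points against Nras(G12D) in Tet2(-/-) and nonleukemic double mutant and -25.2 in leukemic minus Tet2(-/-). With a coverage minimum of 20 they were 0.0181 (island) and 9.48 points (flank) for Tet2(-/-) minus Nras(G12D) and 0.118 (island) for nonleukemic double mutant minus Tet2(-/-), whose shore difference was -1.92 over all listed CpGs. The shore differences from Nras(G12D) stayed between 9.27 and 19.4 points without any 1 replicate. The cause of these changes was not tested. Reads were few in places: tested Spry4 flank tiles held as few as 20 and 35 reads in a library.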

Other observations

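At Spry1, 2 of the 302 strand positions listed in its window, both 6870 to 7869 bp upstream of the start, are listed in all libraries of the nonleukemic double mutant, Tet2(-/-) and Nras(G12D) groups and in 0 leukemic libraries, so that they gave no value for leukemic cells. No other member gene had a position listed in every library of some groups and in no library of all the remaining groups. Positions listed in only some libraries of a group were not counted. Non-island member CpGs read as exactly 0% or 100% made up 58.6%, 39.6% and 65.2% in leukemic, 38.5%, 31.5% and 32.2% in nonleukemic double mutant, 46.9%, 66.7% and 42.7% in Tet2(-/-), and 33.8%, 36.1% and 59.2% in Nras(G12D) replicates 1 to 3.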
